A study of Caenorhabditis elegans with 2 samples.

Results

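X chromosome promoters that point one way are described here as they appear in a binding map of ETS-7, a transcription factor of the ETS family, in early embryos of Caenorhabditis elegans. The regions are those of the authors' pooled list that lie on X, whose summit falls from 1000 bp before to 200 bp after the start of any annotated protein-coding transcript, whose genes in that window all lie on one strand, and which have no tRNA, snoRNA, snRNA, miRNA or rRNA gene within 500 bp of the summit. This rule, which uses neither signal nor sequence, gave 670 regions of 11626 in the pooled list, called members below. They form 594 loci once overlapping members are merged. The pooled list is labelled as peaks and background used as input for IDR, a threshold on reproducibility between replicates. A member is therefore a listed region and not in itself a binding site.

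The study has a single group with 2 biological replicates (replicates 3 and 4), so there is no control group and no contrast between conditions. Both are whole hermaphrodite embryos of strain OP487, a transgenic line in which ETS-7 carries GFP and FLAG at its C-terminus, collected 3 hours after eggs were released by bleaching. Binding was measured by ChIP-seq, in which sonicated chromatin is precipitated with an antibody, here against GFP, and the recovered DNA is sequenced. The promoter that drives the fusion and the number of lines are not given in the labels. The lists hold no expression values, so the embryonic stage could not be checked with marker genes. In whole embryos, binding in few cells and weak binding in many cannot be told apart.

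ETS proteins bind DNA through a conserved domain that recognises a GGAA core, and the flanking bases differ between family members. In hermaphrodite worms the dosage compensation complex is loaded on both X chromosomes at recruitment sites and lowers transcription from genes along them. Promoters of worm genes often lie some distance upstream of the annotated 5' end, because the first bases of many transcripts are replaced by a trans-spliced leader.

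The sequences around the summits are shown for members picked by their letters or GC content. They are not simply the strongest members, and sdc-1 among them is not in the optimal list, which the authors label as thresholded by IDR. Each window spans 100 bp to each side of the summit on the ce11 build, which is the WBcel235 assembly of the RefSeq genome used here, and is written in the direction of the gene. Capitals mark CACACA and GAGAGA, which are hexamers of CA and GA repeats, CCGGAA, the hexamer with an ETS core, and the B box letters, which are GGTTC, any base, A, any 2 bases and CC, as in the B box of tRNA genes, each on either strand.

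The first set holds the 2 optimal members whose windows carry the B box letters. The T13C5.6 window lies at X:6207796-6207996 on the minus strand and that of ZK816.3 at X:3347964-3348164 on the plus strand.
T13C5.6: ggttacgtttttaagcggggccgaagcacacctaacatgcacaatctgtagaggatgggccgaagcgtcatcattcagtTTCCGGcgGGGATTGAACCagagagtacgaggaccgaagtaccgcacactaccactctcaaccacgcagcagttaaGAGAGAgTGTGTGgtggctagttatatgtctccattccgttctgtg
ZK816.3: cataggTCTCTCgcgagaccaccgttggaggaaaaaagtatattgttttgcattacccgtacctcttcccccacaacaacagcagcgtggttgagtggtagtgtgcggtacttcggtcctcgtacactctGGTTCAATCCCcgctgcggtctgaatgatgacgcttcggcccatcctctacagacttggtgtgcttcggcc

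The second set holds optimal members with CCGGAA. The mksr-1 window lies at X:1069107-1069307 on the minus strand and the sto-1 window at X:7562829-7563029 on the plus strand.
mksr-1: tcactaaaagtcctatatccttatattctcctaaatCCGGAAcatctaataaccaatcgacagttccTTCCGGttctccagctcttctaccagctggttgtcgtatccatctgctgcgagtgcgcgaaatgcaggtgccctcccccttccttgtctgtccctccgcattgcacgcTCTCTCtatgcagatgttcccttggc
sto-1: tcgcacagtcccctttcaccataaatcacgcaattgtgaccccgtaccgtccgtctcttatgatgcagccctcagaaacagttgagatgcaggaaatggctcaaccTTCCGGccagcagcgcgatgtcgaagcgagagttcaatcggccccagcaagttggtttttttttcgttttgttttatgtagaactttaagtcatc

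The third set holds members with both CACACA and GAGAGA, in runs of up to 16 bp at F09C8.2 and 14 bp at mek-1 and shorter ones at the others. The windows lie at X:16147739-16147939 (F09C8.2, minus strand), X:7478519-7478719 (mek-1, plus strand), X:13527423-13527623 (pab-2, minus strand), X:15707493-15707693 (nhr-48, plus strand) and X:16275329-16275529 (sdc-1, plus strand).
F09C8.2: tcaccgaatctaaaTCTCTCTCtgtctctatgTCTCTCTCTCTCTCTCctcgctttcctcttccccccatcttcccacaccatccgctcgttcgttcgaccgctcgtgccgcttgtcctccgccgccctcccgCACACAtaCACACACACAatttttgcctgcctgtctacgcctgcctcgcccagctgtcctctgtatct
mek-1: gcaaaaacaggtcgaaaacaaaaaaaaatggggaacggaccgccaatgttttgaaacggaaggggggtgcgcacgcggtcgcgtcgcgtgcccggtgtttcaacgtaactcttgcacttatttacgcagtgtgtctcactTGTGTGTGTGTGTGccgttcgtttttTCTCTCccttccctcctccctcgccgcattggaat
pab-2: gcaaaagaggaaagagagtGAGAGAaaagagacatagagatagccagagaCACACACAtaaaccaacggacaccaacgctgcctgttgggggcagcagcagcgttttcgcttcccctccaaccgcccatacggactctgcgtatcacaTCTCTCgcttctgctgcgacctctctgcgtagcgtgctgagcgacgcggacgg
nhr-48: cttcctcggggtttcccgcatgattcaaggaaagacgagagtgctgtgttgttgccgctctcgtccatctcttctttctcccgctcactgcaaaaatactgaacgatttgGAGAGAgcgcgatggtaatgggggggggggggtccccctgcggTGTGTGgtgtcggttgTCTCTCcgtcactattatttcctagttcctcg
sdc-1: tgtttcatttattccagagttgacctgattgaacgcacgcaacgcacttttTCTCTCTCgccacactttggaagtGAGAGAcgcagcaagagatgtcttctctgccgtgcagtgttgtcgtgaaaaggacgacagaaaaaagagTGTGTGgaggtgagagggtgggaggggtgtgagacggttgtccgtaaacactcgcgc

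The last pair is shown for contrast. The serp-1.1 window, at X:15841179-15841379 on the plus strand, is rich in G and C with none of these letters, and the nhr-25 window, at X:13007909-13008109 on the plus strand, is the optimal window with the least G and C.
serp-1.1: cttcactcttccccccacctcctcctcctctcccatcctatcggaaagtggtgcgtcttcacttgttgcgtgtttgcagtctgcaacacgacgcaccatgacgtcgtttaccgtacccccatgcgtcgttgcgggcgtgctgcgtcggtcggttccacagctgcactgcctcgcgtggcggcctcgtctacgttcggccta
nhr-25: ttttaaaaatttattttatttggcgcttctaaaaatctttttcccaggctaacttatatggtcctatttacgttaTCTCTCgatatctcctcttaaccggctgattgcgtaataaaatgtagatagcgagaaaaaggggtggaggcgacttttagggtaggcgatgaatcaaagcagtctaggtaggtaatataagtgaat

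The signal of a region is the authors' own value, and no source used here gives its scaling, so it serves to rank regions within a list. Over the members it ran from 27.5 to 311, with a median of 37.2, against a median of 34.9 both for the 2750 autosomal regions that meet the same rule and for all pooled regions. In the lists called on single replicates the same rule gave 871 members of 16227 regions in replicate 3 and 792 of 15533 in replicate 4. The median signal of members was 19.8 in the list of replicate 3 and 17.8 in that of replicate 4.

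The authors' optimal list, labelled as thresholded by IDR, holds the 595 regions of highest pooled signal. Membership in it thus equals a threshold on that signal, and members outside it did not pass. It held 34 members, 5.07% (exact 95% interval 3.54% to 7.02%), against 5.12% of all pooled regions and 4.47% (3.73% to 5.31%) of the autosomal regions of the same rule. Among the 595 highest regions of each replicate's own list were 33 members of replicate 3, 3.79%, where 3.67% of all regions of that list fall, and 34 members of replicate 4, 4.29%, where 3.83% fall. The shares of members lay near those of all regions in all 3 lists. The autosomal share was below that of X with the window used here and above it with a window of -500 to +100 bp (6.04% against 4.75%). It was also above that of X when only optimal regions over the median signal of the optimal list were counted (1.93% against 1.49%).

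Both replicates placed a region over most members. The pooled list was called on these same 2 replicates, so such overlap, and its rise with pooled signal, is partly built in. A region of each replicate overlapped 449 of the 670, 67.0% (63.3% to 70.6%), against 59.5% (57.6% to 61.3%) of the autosomal regions of the same rule and 58.2% of all pooled regions. The share followed the signal: with members cut by pooled signal into 5 groups of 134, it was 100% in the highest group, 67.2% in the middle one and 23.9% in the lowest, and in the autosomal regions 97.5%, 58.4% and 21.1%. Where both replicates had a region, the median log2 ratio of replicate 3 over replicate 4 was 0.17 over members, with an SD of 0.50. Members close to each other in rank are therefore not ordered beyond the difference between replicates. Of the 34 optimal members, 13 had the higher signal in replicate 3 and 21 in replicate 4. Members near each other can share a replicate region, as 12 optimal members do with another member.

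**Figure D1:**
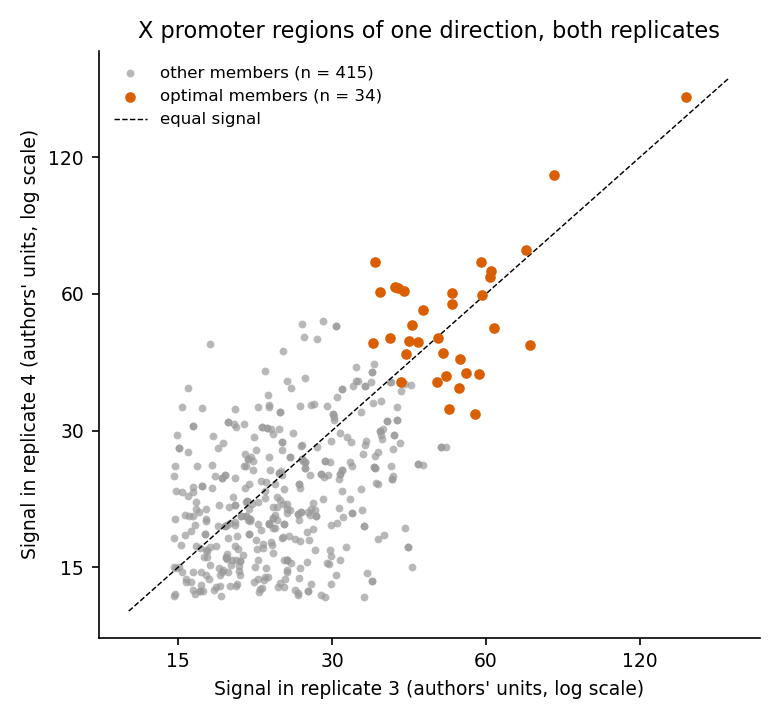
Signal of each member in replicate 3 (x axis) and replicate 4 (y axis), in the authors' units on log scales, for the 449 members with a region in both lists. Points are members, orange for the 34 optimal ones, and the dashed line marks equal signal: the optimal members sit at the upper right on both sides of the line, and T13C5.6 stands alone at 148 and 163.

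The strongest member, at X:6207759-6208013, lay 209 bp upstream of the 5' end of T13C5.6. Its signal was 311 in the pooled list, 148 in replicate 3 and 163 in replicate 4, and it ranked 24 among all pooled regions. The summit was inside C14F11.14, an annotated non-coding RNA gene of 147 bp at X:6207835-6207981 on the opposite strand. That biotype is not among those the rule leaves out, and the nearest gene of those biotypes was 12174 bp away. In the T13C5.6 window the B box letters read as the capitals GGGATTGAACC, the reverse complement of GGTTCAATCCC in the ZK816.3 window. The B box is the internal promoter element by which RNA polymerase III transcribes tRNA genes.

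Read on one strand of X, the windows of T13C5.6 and ZK816.3 shared an ungapped stretch of 92 bp with 86 identical bases, the longest identical run being 34 bp. The ZK816.3 region, X:3347824-3348303, had signals of 100 in the pooled list, 58.3 in replicate 3 and 40.01 in replicate 4. Its summit also lay in non-coding RNA genes, ZK816.8 and ZK816.9. These were the only optimal members with the B box letters, 2 of 34, while 2 of the 636 other members, 16 of the 2750 autosomal regions and 0.490% of all adjoining windows of that length on X held them. So did 308 of all 11626 pooled regions, 2.65%, and 1 of the 123 optimal autosomal regions. Of all optimal regions with no small RNA gene within 500 bp, 6 of 385 did. Among optimal regions near a small RNA gene, which the rule leaves out, 106 of 210 did. These were also the only optimal members whose window was not wholly single-copy: 95.2% of the 36-mers at T13C5.6 and 80.7% at ZK816.3 occurred once in the genome. The letters were looked up after the T13C5.6 sequence had been seen, and what part they have in the signal was not tested. A summit in a non-coding RNA gene was seen for 6 of the 34 optimal members, 17.6% (6.76% to 34.5%), and for 7.31% of all members.

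Next came the region of cas-1, which encodes a cyclase-associated protein that acts on actin. Its pooled signal was 193, with 81.7 in replicate 3 and 110 in replicate 4, and it lay 535 bp upstream of the 5' end. The region of mksr-1, a gene of the ciliary transition zone, lay 78 bp upstream at X:1068967-1069446, with signals of 153, 72.0 and 75.1 in the pooled list and in replicates 3 and 4. With T13C5.6, the regions of these genes exceeded all other optimal members in the pooled list and in that of replicate 4. In replicate 3 the mek-1 region, at 73.3, was above that of mksr-1.

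The next genes are ordered by what they encode, a grouping made after ranking that carries no count. The region of mek-1, a MAP kinase kinase of the stress pathways, had a pooled signal of 120, and 73.3 in replicate 3 against 46.3 in replicate 4. That of ftt-2, a 14-3-3 protein, had 112, with 62.3 and 50.6, and tsp-21, a tetraspanin that acts in BMP-like signalling, had 111, with 51.6 and 60.2. The tsp-21 summit was 120 bp inside the gene, in an intron. At ftt-2 a second member lay upstream, just outside the optimal list at 77.6, and both took their replicate values from the same replicate regions.

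Some encode proteins of membranes. The region of sms-2, a sphingomyelin synthase, had a pooled signal of 130, with 61.4 in replicate 3 and 67.4 in replicate 4. The region of epn-1, the endocytic adaptor epsin, had 118, with 59.1 and 59.8, so the replicates differed little there. The region of apa-2, the alpha subunit of the AP-2 clathrin adaptor, had 94.1, with 54.9 and 40.1. The sto-1 gene encodes a stomatin, and its region, with the summit 69 bp past the 5' end in a coding exon, had 102, with 40.3 and 61.85.

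Others encode proteins that act on transcription or RNA. The region of pab-2, a poly(A)-binding protein, had a pooled signal of 104, with 39.8 in replicate 3 and 62.0 in replicate 4. The region of bet-2, a bromodomain protein, had 103, with 36.35 and 70.4, the widest gap among the genes named here for transcription or RNA. The nuclear hormone receptor nhr-48 had 103, with 51.4 and 57.0, and myrf-2, a membrane-bound factor of the myelin regulatory factor family, had 102, with 37.3 and 60.7. Further down, mdl-1, a Mad-like basic helix-loop-helix factor, had 94.8, ain-1, a GW182 protein of the microRNA complex, had 92.5, and atf-6, a factor of the unfolded protein response, had 92.1.

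The cytoskeletal and synaptic genes syd-2, which encodes liprin-alpha, and spc-1, which encodes alpha spectrin, had pooled signals of 99.5 and 90.6. The remaining regions of the 25 strongest were at serp-1.1 (129), F09C8.2 (127), ZC506.1 (95.8), F46H5.2 (93.9) and H28G03.2 (92.1). Around the threshold of the optimal list, pqn-65 had 80.8 as the lowest member inside and chtl-1 had 79.7 as the highest outside, followed by F17E5.2 with 79.1. At chtl-1 the replicates differed, with 50.2 in replicate 3 and 27.6 in replicate 4.

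**Figure D2:**
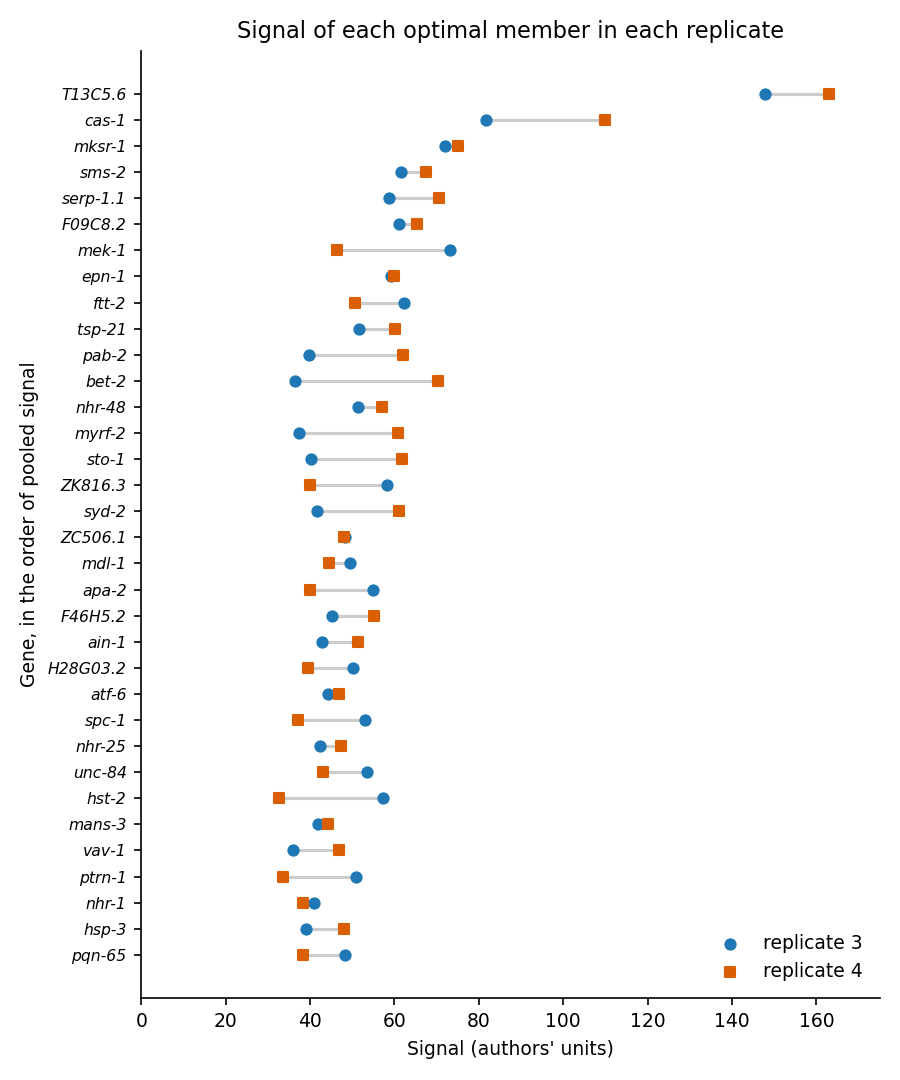
Signal in replicate 3 (blue circles) and replicate 4 (orange squares), in the authors' units, for each of the 34 optimal members, named by gene and ordered by pooled signal. T13C5.6 stands apart in both replicates and cas-1 in replicate 4, while among the others the replicate values of single genes, such as bet-2 (36.35 and 70.4), spread as widely as the genes do.

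The rule confines summits to -1000 to +200 bp, so that most lie upstream is set by that window. Within it, the median position of the summit relative to the nearest 5' end was -272.5 bp, and 356 of 670 members, 53.1% (49.3% to 57.0%), had it within 300 bp, against 51.6% of the autosomal regions. Among the optimal members the median was -382 bp and 14 of 34 lay within 300 bp. With respect to protein-coding genes, 63.6% (59.8% to 67.2%) of summits were intergenic, 19.1% were in introns, 8.66% in coding exons, 6.87% in 5' UTRs and 1.79% in 3' UTRs. In the autosomal regions 49.5% were intergenic and 17.5% in coding exons, and 16.9% of summits lay in another protein-coding gene, against 4.33% on X. Gene spacing was not matched between X and the autosomes.

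**Figure D3:**
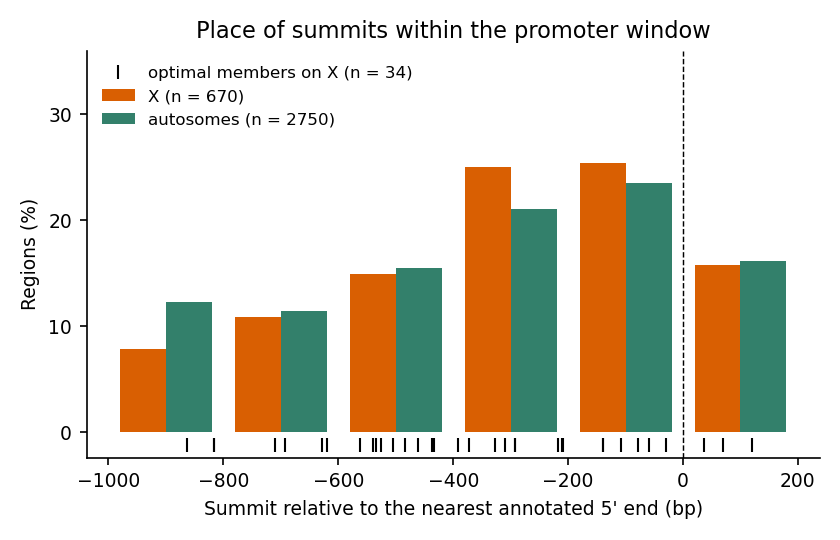
Share of regions (y axis, percent) by position of the summit relative to the nearest 5' end (x axis, bp, in bins of 200 bp) for the 670 members on X and the 2750 autosomal regions; ticks below the bars mark the 34 optimal members. The bins from -400 to 0 bp hold 25.1% and 25.4% of members, and the outermost bin holds 7.91% of members and 12.3% of autosomal regions.

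Counted by gene, 549 of the 2731 protein-coding genes on X, 20.1% (18.6% to 21.7%), had a member, and 2375 of 17242 autosomal genes, 13.8% (13.3% to 14.3%), had a region of the same rule. An optimal region was found at 34 X genes, 1.24% (0.864% to 1.74%), and at 0.737% (0.614% to 0.876%) of autosomal genes. The rule drops divergent promoters and regions near small RNA genes, while these shares are out of all protein-coding genes. With any pooled summit in the promoter there were 639 X genes, and that number is not given here for autosomes. Per length the chromosomes were closer: X had 37.8 regions of the rule per Mb, chromosomes I, II and III had 37.4 to 38.4, IV had 30.3 and V had 26.4. Most X genes with a member had 1 (444 genes), 91 had 2, and 14 had 3 or more, with 6 at gap-2, a Ras GTPase-activating protein. Members were found along the whole of X, with 52 to 95 in each successive 2 Mb up to 18 Mb.

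CCGGAA, the hexamer with an ETS core, was found near few summits. The windows of 63 of 670 members held it, 9.40% (7.30% to 11.9%), against 12.9% (11.6% to 14.2%) in the autosomal regions and 14.1% (13.5% to 14.8%) in all pooled regions. Windows centred 500 bp away from each member's summit, on both sides, held it in 5.22% of cases (4.09% to 6.55%), and all adjoining windows of X in 6.34%, so the summits of members held it more often than the sequence around them. The difference between optimal and other members did not keep its direction. It was -0.61 percentage points in the pooled list, with 3 of 34 optimal members (T13C5.6, mksr-1 and sto-1) against 9.43% of the others. With the 595 highest regions of each replicate's list it was +4.13 points in replicate 3 and +12.8 points in replicate 4. The strong members with the hexamer numbered 3, 4 and 7 in these lists, so a few regions set the difference.

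Signal did not follow the hexamer in the pooled list. Members with CCGGAA had a median pooled signal of 37.9 and those without it 37.1. The longer form ACCGGAAG lay in 23 members, 3.43% (2.19% to 5.11%), against 2.58% of autosomal regions, and mksr-1 was the 1 optimal member among them. In the mksr-1 window CCGGAA occurs at 2 places, the second of which, on the other strand, belongs to ACCGGAAG. GCGCAGGG, the core of the element at which the dosage compensation complex is recruited, lay in 2 members of 670 and in 0.301% of all pooled regions. CACGTG, the E-box of basic helix-loop-helix factors, lay in 3.58% of members and 4.05% of all pooled regions, and CCGCCC in 8.21% and 7.72%.

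The hexamers of CA and GA repeats, in contrast, were common at the strong members. A single hexamer was enough to count, and the length of repeats was not tabulated over the members. CACACA lay within 100 bp of the summit in 21 of 34 optimal members, 61.8% (43.6% to 77.8%), and in 22.2% of the others, 141 of 636. GAGAGA lay in 19 of 34, 55.9% (37.9% to 72.8%), and in 27.8% (24.4% to 31.5%). Either of them lay in 30 of 34, 88.2% (72.5% to 96.7%), and in 42.5% (38.6% to 46.4%). The 4 optimal members with neither were serp-1.1, sto-1, atf-6 and mans-3. In the autosomal regions the same shares were 20.3% of optimal against 15.2% of other regions for CACACA, 32.5% against 22.4% for GAGAGA and 40.7% against 31.9% for either. Over all pooled regions either hexamer lay in 47.9% of optimal and 29.8% of other regions. For X regions outside promoters it was 13 of 30, 43.3% (25.5% to 62.6%), and 30.9%. For divergent promoters of X it was 0 of 2 optimal and 18 of 32 other regions.

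These hexamers were picked because of their values: among all 2080 hexamers, merged with their reverse complements, CACACA had the largest difference between optimal and other members, its shifted form ACACAC came next and GAGAGA was at place 4, while CCGGAA was at place 1036. The sizes given are therefore the largest of many and carry no test. With the highest regions of each replicate's own list, CACACA was at 60.6% against 17.9% in replicate 3 and 58.8% against 20.4% in replicate 4, and GAGAGA at 60.6% against 23.7% and 55.9% against 26.4%. Either was at 84.8% against 35.4% in replicate 3 and 82.4% against 39.8% in replicate 4. For the autosomal regions of these lists, either was at 45.9% against 28.0% and 45.1% against 29.2%, a wider difference than in the pooled list. Those lists share the genome and most strong places with the pooled list and are not independent of it. The difference was smaller with other windows: within 50 bp of the summit it was 16.7 percentage points for CACACA and 11.8 for GAGAGA, and with promoters of -500 to +100 bp it was 31.4 and 11.0.

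The share with either hexamer fell along the whole range of signal. From the highest to the lowest of the 5 groups it was 73.9%, 56.0%, 41.8%, 26.9% and 25.4%, and in the autosomal regions 43.6%, 34.7%, 29.5%, 30.4% and 23.5%. The median pooled signal was 43.9 for the 300 members with either hexamer and 33.5 for the 370 without. CCGGAA showed no such order, with 8.21% in the highest group and 13.4% in the lowest. The other end of the order of hexamers held A and T: TGAAAA lay in 1 of 34 optimal members, 2.94%, and in 38.4% of the others.

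**Figure D4:**
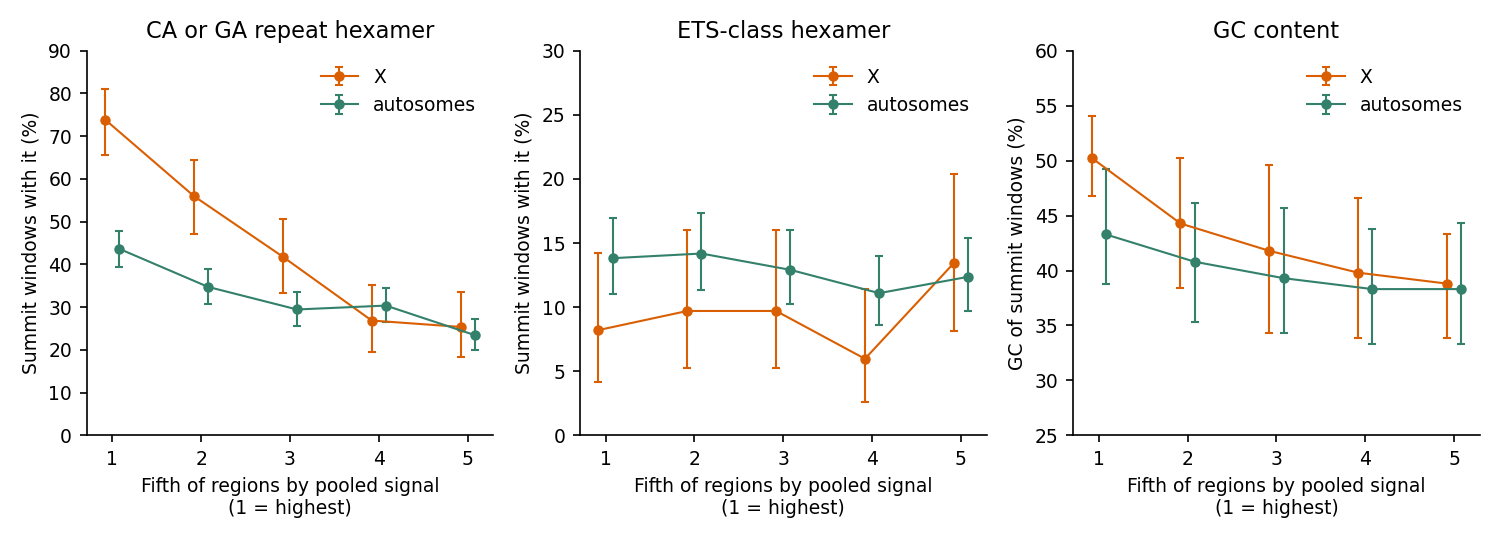
Share of summit windows with CACACA or GAGAGA (left, percent, exact 95% intervals), with CCGGAA (middle, percent, exact 95% intervals) and GC content (right, percent, median with the quartiles as bars) in 5 groups by pooled signal, from the highest (1) to the lowest (5), for X (orange) and autosomes (green). On X the share with a repeat hexamer goes from 73.9% to 25.4% and median GC from 50.2% to 38.8%.

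GC content moved with the same order. The summit windows of optimal members had a median GC of 53.98% (quartiles 50.6% and 56.6%) against 42.3% (36.2% and 49.3%) in the others, and in the autosomal regions the medians were 43.8% and 39.8%. Windows centred 500 bp away from the optimal summits had a median of 33.6%. Within windows of at least 50% GC, either hexamer lay in 24 of 26 optimal members, 92.3% (74.9% to 99.1%), and in 85 of 139 others, 61.2% (52.5% to 69.3%). At that GC content it lay in 20 of 28 optimal autosomal regions, 71.4% (51.3% to 86.8%), and in 48.4% (43.1% to 53.8%) of the others. Over all pooled regions the shares were 67.4% and 40.8%. In those GC-rich windows 24 of 109 members with a hexamer were optimal and 2 of 56 of those without, 3.57%, against 15.3% and 5.68% of all pooled regions and 10.5% and 4.23% of the autosomal regions in those classes. In windows under 50% GC the numbers were 6 of 191, 3.14%, and 2 of 314, 0.637%, both below the 5.74% and 3.56% of all pooled regions. The part of GC content and of the control libraries in the signal was not tested.

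Repeats can also affect how reads are placed. Of the members with either hexamer, 97.7% had windows in which every 36-mer occurs once in the genome, and of those without, 97.3%. Among optimal members 32 of 34 did, the exceptions being T13C5.6 and ZK816.3. Without those 2, either hexamer lay in 28 of 32 optimal members, 87.5%. Only exact copies of a 36-mer were counted, at an assumed read length, and no reads were analysed. The part of read placement in the signal was therefore not tested.

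The repeat hexamers were less frequent away from the summits. Windows centred 500 bp away from the optimal summits held CACACA in 11 of 68 cases, 16.2% (8.36% to 27.1%), and GAGAGA also in 11, and for the other members the values were 9.98% and 9.20%. All adjoining windows of X held CACACA in 9.57% and GAGAGA in 9.50% of cases, and those of the autosomes in 8.12% and 10.1%. Windows centred 300 bp upstream of X genes with no pooled summit within 1200 bp held them in 11.0% and 12.1%. In the profile of optimal members CACACA was most frequent in the bin from 50 to 100 bp past the summit toward the gene, 32.4%, against 6.13% in the other members. GAGAGA was in 20.6% of optimal members in 3 of the 4 bins within 100 bp, and again in the bin from 200 to 250 bp. By strand, CACACA stood on the gene's strand alone in 83 members and on the opposite strand alone in 72, while GAGAGA did so in 45 and 130, so that most of these members read TCTCTC in the direction of the gene, as the F09C8.2 window does. Among optimal members these counts were 7 and 9. In the autosomal regions GAGAGA was on the opposite strand alone in 14.6% and on the gene's strand alone in 6.44%.

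**Figure D5:**
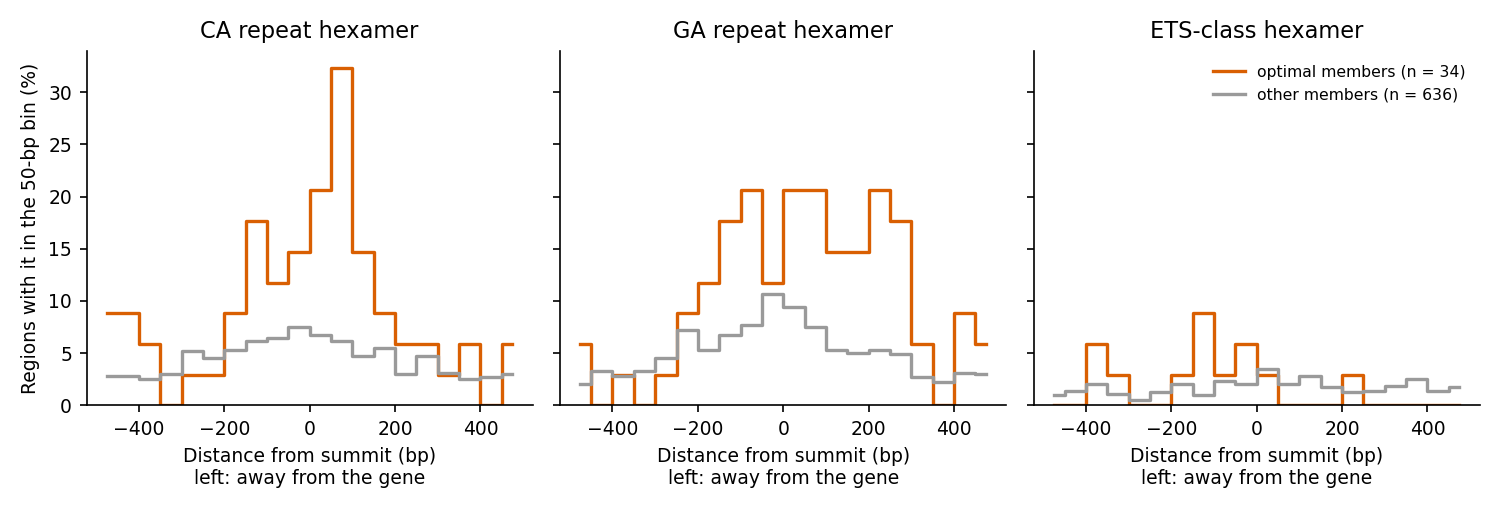
Share of regions (y axis, percent) with CACACA (left), GAGAGA (middle) and CCGGAA (right) in each bin of 50 bp by distance from the summit (x axis, bp, with the gene to the right), for the 34 optimal members (orange) and the 636 others (grey). CACACA reaches 32.4% and GAGAGA 20.6% in single bins near the optimal summits, GAGAGA also farther toward the gene, and CCGGAA stays at or under 8.82% in every bin of both groups.

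Groups of genes were read against the 20.1% of all X protein-coding genes that had a member and the 1.24% that had an optimal one. The groups are lists made by hand, and a list need not hold every X gene of its kind. Nuclear hormone receptors, ligand-controlled transcription factors, had a member at 8 of 27 genes on X, and 3 of these were optimal: nhr-48, nhr-25 and nhr-1. The nhr-25 gene, a receptor of the NR5A family that acts in the epidermis, had a pooled signal of 90.3, with 42.4 in replicate 3 and 47.2 in replicate 4. The nhr-1 gene had 82.4, with 40.9 and 38.3. Of the translation genes on X, 5 of 6 had a member, of which pab-2 was optimal, followed by rpl-11.2, a ribosomal protein, with 68.6 and ife-2, a cap-binding protein, with 63.5. All 5 had CACACA or GAGAGA at the strongest member, as had 251 of the 549 X genes with a member, and 0 of the 4 collagen genes with one.

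Membrane traffic genes had a member at 10 of 23 and muscle and cytoskeleton genes at 8 of 18. In the membrane traffic list the strongest after apa-2 were vha-12, a subunit of the vacuolar proton pump, with 75.9 and rme-4 with 69.7. In the muscle list it was act-4, an actin, with 78.1. Neither list is complete: epn-1, with 118, is not in the membrane traffic list. The muscle and cytoskeleton list does not hold cas-1 and spc-1, with 193 and 90.6. The chromatin list had a member at 10 of 23 genes, led by set-20 with 78.1 and set-30 with 63.5, and none of them was optimal. It does not hold the bromodomain gene bet-2, which had an optimal member with 103. Growth factor and Ras genes had 3 of 9: sem-5, the Grb2 adaptor, with 73.3, gap-2 with 66.6 and lin-2 with 53.7. Axon guidance and adhesion genes had 8 of 23, led by sym-3 with 67.2. These lists were made by hand with some results of these data known and are small and incomplete, so the counts are a description of the listed genes.

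Several lists were near or under the share of all X genes. Ion channel genes had a member at 8 of 50, led by acr-2 with 38.8, and neuropeptide genes at 6 of 35, led by ins-39 with 51.4. Collagen genes had 4 of 30, led by col-44 with 48.4, and homeobox genes 4 of 23, led by ceh-37 with 43.4. The list of basic helix-loop-helix genes had 1 of 10, hlh-15 with 43.3. That list does not hold mdl-1, which had an optimal member with 94.8. No gene of these lists had an optimal member, as for most X genes. Of 4 GATA factor genes, elt-2 and elt-3, which act in the intestine and epidermis, had members of low signal, 34.1 and 31.4. The remaining lists had oxidative phosphorylation at 2 of 5 genes, splicing and RNA binding at 1 of 5 and yolk and egg at 1 of 5, vit-2 with 37.9.

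Among genes of sex determination and dosage compensation, 3 of 7 on X had a member. The region of sdc-1, a zinc finger protein of dosage compensation, lay 334 bp upstream at X:16275189-16275668, with a pooled signal of 52.7, and 19.3 in replicate 3 against 31.1 in replicate 4. The region of fox-1, an RNA-binding X signal element, had 47.8, with 27.6 and 20.7, and lay in an intron of the gene. The region of ceh-39, a homeodomain X signal element, had 39.3 and a replicate region in replicate 3 alone, at 27.5. No pooled summit lay in the promoter windows of sdc-2, sex-1, xol-1 or tra-4.

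Of the ETS family genes on X, ets-5 had a member, and ets-4, ets-9 and ets-10 had no pooled summit in their promoter windows. The ets-5 region had a pooled signal of 33.8 and a replicate region of 21.3 in replicate 3 alone and ranked 416 of the 670 members. None of these genes held CCGGAA at its strongest member, while sdc-1, fox-1 and ceh-39 each held CACACA or GAGAGA there and ets-5 held neither. Of all 549 X genes with a member, 50 held CCGGAA and 251 held CACACA or GAGAGA at the strongest, so these few genes are a description.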

How the data were processed

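ChIP-seq with an antibody against GFP was done on whole early embryos of the ETS-7 line in 2 biological replicates, per the labels. The authors deposited lists of regions with a summit and a signal value per region, called on each replicate and on both pooled. The pooled list is labelled as peaks and background for input to IDR, and an optimal list as thresholded by IDR. The deposited signal values are the authors' own: no source used here names the aligner, the peak caller or the scaling. Depth is unknown because the lists carry no counts of reads, and the control libraries were not analysed here. The build is ce11 per the file descriptions, the same assembly as WBcel235. Values were computed with pandas 2.3.3, NumPy 2.4.6 and SciPy 1.17.1 under Python 3.11.15 and plotted with matplotlib 3.10.9.

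Summits were assigned to 5' ends of protein-coding transcripts of Ensembl annotation for WBcel235, and sequences were read from the RefSeq genome of that assembly. Motifs were searched on both strands within 100 bp of the summit: the ETS core GGAA, the hexamer CCGGAA that holds it and the octamer ACCGGAAG that holds both, the repeat hexamers CACACA and also GAGAGA, then CCGCCC as a GC-rich hexamer, CACGTG as the E-box, GCGCAGGG as the dosage compensation core and the B box letters. A region was overlapped in a replicate from 1 shared bp. Single-copy sequence was judged by 36-mers, an assumed length. The steps were tested on simulated data.

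With 1 group of 2 replicates there is no comparison of conditions, and regions are not replicates of a condition, so no test was run. Shares carry exact (Clopper-Pearson) 95% intervals, which treat regions as independent draws, cover counting error only and say nothing of animals or libraries. The list of each replicate stands for leaving out the other.

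The members and gene lists were chosen with earlier results of these data known. Genes are named where they lie at the 25 members of highest pooled signal, at an optimal member with ACCGGAAG, among the up to 3 strongest of each list, or in the dosage compensation and ETS lists. CACACA and GAGAGA, the 5 groups by signal, the split at 50% GC and the B box letters were chosen after values had been seen, as were the members named beside the optimal threshold, those without a repeat hexamer and gap-2 as the gene with most members.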

Additional observations from a re-analysis of the deposited data

How the results depend on the processing

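No paired analysis was possible because there is 1 group and no second group to pair with. Percentages follow the main value; the cause of each shift was not tested unless the setting itself removes or adds regions or bases. The optimal share of members (5.07%) was 3.99% with promoters of -2000 to +200 bp, 5.77% with the outermost 5' end of each gene, 5.72% with overlapping regions merged, 1.49% in the upper part of the optimal list and 3.79% to 4.29% without one replicate. That upper part holds only the optimal regions over the median signal of the list, so shares in it must be lower. The share of all pooled regions in it was not computed. The autosomal share (4.47%) was 6.04% with -500 to +100 bp, 3.61% with -2000 to +200 bp, 4.76% with outermost ends, 4.37% with no small RNA gene within 1000 bp, 4.804% merged, 1.93% in the upper part and 3.628% to 3.635% without one replicate. Median signal (37.2) was 17.8 to 19.8 on the separate scales of the single lists.

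The CCGGAA share (9.40%) was 8.64% with -500 to +100 bp, 9.91% with -2000 to +200 bp, 8.94% with outermost ends, 9.21% with no small RNA gene within 1000 bp, 9.26% merged, 5.52% within 50 bp, 3.43% for ACCGGAAG, 86.7% for GGAA and 8.15% to 8.33% without one replicate. Its difference between optimal and other members (-0.61 points) turned to 5.25, 1.58 and 0.784 with the first 3 of these settings, 10.8 in the upper part of the optimal list, 3.48 within 50 bp, and 4.13 to 12.8 without one replicate. It stayed below 0 under the other 4 settings.

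The CACACA difference (39.6 points) was 31.4 with -500 to +100 bp, 32.8 with -2000 to +200 bp, 36.4 in the upper part, 16.7 within 50 bp and 38.4 to 42.7 without one replicate. The GAGAGA difference (28.1) was 11.0 with -500 to +100 bp, 11.8 within 50 bp and 29.5 to 36.9 without one replicate. That for either (45.8) was 32.4, 39.2 with -2000 to +200 bp, 25.7 within 50 bp and 42.5 to 49.4. The GC difference (11.7) was 9.45 with -500 to +100 bp, 9.95 with -2000 to +200 bp, 10.9 with outermost ends, 9.20 in the upper part, 12.9 within 50 bp and 9.45 to 10.4 without one replicate. Overlap in both replicates (67.0%) was 60.7% when 0.5 of each region had to be shared. The share within 300 bp of a 5' end (53.1%) was 66.7%, 37.0% and 53.6% with the 2 other promoter windows and outermost ends, and 51.2% to 51.8% without one replicate. With 34 optimal members, 1 region moves a share by 2.94 points, and unknown depth leaves no limit on weaker binding.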
